A study of Mus musculus with 8 samples.

Results

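Imprinted genes carry a parental mark, usually DNA methylation laid down in the germ line, so that one parental copy is transcribed and the other is kept silent. The 10 genes described here, chosen by name, are Nnat, Ndn, Snrpn, Magel2, Mest, Peg10, Sgce, Plagl1, Grb10 and Kcnq1ot1, which lie outside the Dlk1-Meg3, Peg3 and H19-Igf2 loci. All 10 symbols were found among the 52636 genes of the count tables. In the mouse all but Grb10 are known to be expressed from the paternal copy, and Grb10 from the maternal copy in most tissues. Many of them are abundant in embryo and placenta and are turned down after birth, and several act on growth. The counts do not separate the parental copies, so they give total levels and not imprinting itself.

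Expression was measured by RNA-seq in malignant mesothelioma (MM) of mice, a cancer that arises from the cells covering the lungs and other organs, and the comparison asks what loss of Bap1 adds. The 6 triple knockout samples lack Nf2, Cdkn2a and Bap1, and the 2 double knockout samples lack Nf2 and Cdkn2a, so loss of Nf2 and Cdkn2a is shared by all 8 samples. Bap1 is a deubiquitinase that acts on histone H2A, Nf2 gives the Hippo pathway protein merlin, and Cdkn2a gives inhibitors of the cell cycle. The labels describe RNA from cells grown in medium with serum and insulin, and they give neither the source of Cre, the age, the strain nor how many mice or cultures were used, and a p-value here reflects only the spread among 8 samples, some of which may be technical.

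Total counts were 28326756 to 30232440 in the triple samples and 26847202 to 32082535 in the double samples. Double sample 1 stood apart, with 4.04% of its counts from mitochondrial genes, against 1.17% to 2.33% in the other samples. Adult skeletal muscle markers summed to 115 to 10889 CPM (counts scaled to a fixed library total) in the triple samples, and to 64655 and 2573 CPM in double samples 1 and 2. All 10 embryonic muscle markers lay lower in every triple sample than in both double samples, against 11.4% of all tested genes. At an adjusted p under 0.05, edgeR called 9 of them lower, against 5.41% of all tested genes, and DESeq2 called 5. Their sums were 4.71 to 161 CPM in the triple samples, and 7438 and 2530 CPM in double samples 1 and 2. Mesothelin (Msln) was counted in all 8 samples, at 12.6 to 194 CPM in the triple and 251 and 342 CPM in the double samples. The mesothelial markers Upk3b, Krt19 and Wt1 reached 33.2 to 173 CPM in triple sample 3 and were under 2 CPM in each of the other samples. The 8 listed mesothelial markers together summed to 54.6 to 743 CPM in the triple samples. In double samples 1 and 2 the sums were 287 and 1345 CPM, so double sample 2 was highest. Of these 8 markers 0 were called by edgeR, and their median log2 fold change was 3.30. Every triple sample was higher for 1 of the 8 and lower for 1, against 12.8% and 11.4% of all tested genes. Whether muscle or other cells in the samples bear on the imprinted genes was not tested, and in such bulk samples fewer cells of a type and less RNA per cell cannot be told apart. The deleted genes were still counted, with Bap1 at 58.5 CPM in the triple and 88.4 CPM in the double samples on average (adjusted p = 0.122 by edgeR). Nf2, lost in both genotypes, was lower in every triple sample, averaging 87.9 CPM against 137 CPM in the double samples (edgeR adjusted p = 0.103). Cdkn2a averaged 6.14 CPM in the triple and 3.35 CPM in the double samples (edgeR adjusted p = 0.306).

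Start-site sequences of the genes whose levels differed most between the genotypes are shown first, with those of their neighbours in the Prader-Willi domain of chromosome 7, because Ndn, Magel2 and Snrpn are under a common imprinting centre. Each is a RefSeq window on GRCm38.p6 from 250 bases before to 50 bases after an annotated start, written 5′ to 3′ on the gene's strand. Capitals mark 2 motifs on either strand. The first is TGCCGC, the hexamer that the imprint-keeping protein ZFP57 binds when its CpG is methylated. The second is GCATGCGC, the core of the palindromic site of the activator NRF1, which was chosen after the sequences had been read and which matches both strands of a full palindrome in overlapping positions.
Nnat, chr2:157559828-157560127, plus strand: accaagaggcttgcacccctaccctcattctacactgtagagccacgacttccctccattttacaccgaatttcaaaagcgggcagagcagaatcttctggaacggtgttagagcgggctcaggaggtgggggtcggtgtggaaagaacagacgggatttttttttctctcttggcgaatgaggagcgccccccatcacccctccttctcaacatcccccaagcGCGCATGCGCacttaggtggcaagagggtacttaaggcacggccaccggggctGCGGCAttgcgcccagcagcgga
Ndn, chr7:62348027-62348326, plus strand: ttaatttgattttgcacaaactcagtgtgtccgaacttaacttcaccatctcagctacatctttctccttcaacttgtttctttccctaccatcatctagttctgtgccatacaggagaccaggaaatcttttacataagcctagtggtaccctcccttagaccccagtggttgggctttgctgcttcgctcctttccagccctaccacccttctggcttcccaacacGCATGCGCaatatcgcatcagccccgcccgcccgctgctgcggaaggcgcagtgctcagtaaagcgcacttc
Magel2, chr7:62376729-62377028, plus strand: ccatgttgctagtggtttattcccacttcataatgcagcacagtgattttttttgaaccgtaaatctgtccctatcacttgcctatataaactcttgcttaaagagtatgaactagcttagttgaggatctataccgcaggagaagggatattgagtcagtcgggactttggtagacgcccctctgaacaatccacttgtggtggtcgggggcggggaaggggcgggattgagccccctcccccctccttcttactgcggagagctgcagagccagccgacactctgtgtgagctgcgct
Snrpn, chr7:60005150-60005449, minus strand: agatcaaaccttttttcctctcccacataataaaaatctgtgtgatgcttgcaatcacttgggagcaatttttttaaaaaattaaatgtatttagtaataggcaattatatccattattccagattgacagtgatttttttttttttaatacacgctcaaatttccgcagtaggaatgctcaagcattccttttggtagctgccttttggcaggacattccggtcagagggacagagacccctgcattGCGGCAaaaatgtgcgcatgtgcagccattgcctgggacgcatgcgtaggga
The Nnat window held 1 TGCCGC hexamer and a full NRF1 palindrome, the Ndn window held the NRF1 core once and no hexamer, the Snrpn window shown held 1 hexamer, and the Magel2 window held neither. CpG dinucleotides numbered 17 in the Nnat, 11 in the Ndn, 10 in the Magel2 and 7 in the Snrpn window shown, against a median of 7 over all 32851 windows. RefSeq gives 4 windows for Snrpn, and the one shown is the only one of them with the hexamer. The other 3 held neither motif and had 4, 3 and 2 CpG dinucleotides. RefSeq windows were matched for 8 of the 10 genes, and Peg10 and Sgce are named only. At least 1 window with the hexamer was found for 5 of those 8 (Nnat, Snrpn, Mest, Plagl1 and Grb10) and for 13.1% of all genes with windows. The NRF1 core was found for 2 of the 8 (Nnat and Ndn) and for 3.05% of all genes. These matches describe letters in short windows and show no binding.

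Expression was compared between genotypes with edgeR's quasi-likelihood test over all 17709 genes that passed a filter on low counts, and a gene was called at a Benjamini-Hochberg adjusted p under 0.05. Over all tested genes 8.35% were called, 2.94% as higher and 5.41% as lower in the triple samples. An unadjusted p under 0.05 was reached by 4947 of the 17709 genes, and DESeq2 called 3380. Of the 10 imprinted genes 9 were tested and 2 were called, Nnat and Ndn, both higher. None was called lower, either by edgeR, by DESeq2 or by limma-voom, and none of the 9 was lower at an unadjusted p under 0.05. The median log2 fold change of the 9 was 0.71, beside 0.02 over all genes tested. The groups did not overlap for these same 2 genes, against 24.1% of all tested genes, 12.8% with every triple sample higher and 11.4% with every one lower.

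**Figure D1:**
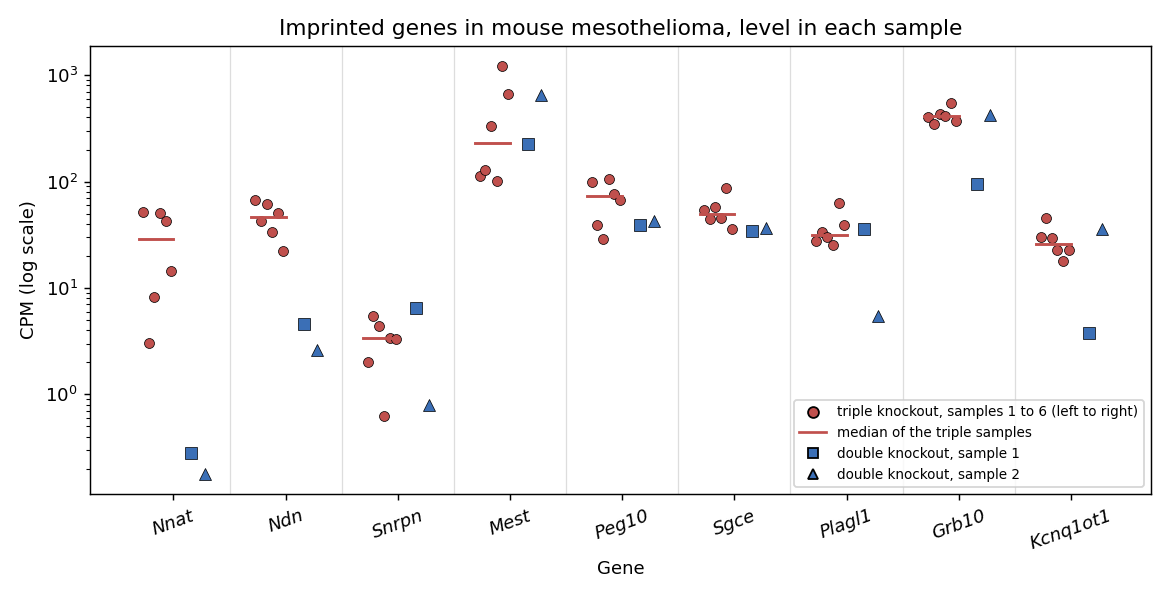
Level of each tested imprinted gene in every sample, in CPM on a log axis. Red circles are triple samples 1 to 6 from left to right with their median as a line, and the blue square and triangle are double samples 1 and 2. Nnat and Ndn lie higher in all 6 triple samples, and the 2 double samples lie far apart for Snrpn, Plagl1, Grb10 and Kcnq1ot1.

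Nnat encodes neuronatin, a small membrane protein of the endoplasmic reticulum that resembles regulators of the SERCA calcium pump and is known from developing brain, pancreas and fat. It lies on chromosome 2 (157560078 to 157562522, plus strand) inside the span of Blcap, which is read from the opposite strand. Nnat stood at 3.04, 28.6 and 51.8 CPM (lowest, median and highest) in the triple samples, against 0.283 and 0.181 CPM in double samples 1 and 2, which held 7 and 5 counts. Every triple sample was above both double samples, but the triple samples themselves spread over 17.0-fold, with samples 1, 4 and 5 at 42.9 CPM or more and sample 2 lowest. The log2 fold change was 6.93 ± 1.48 (SE; edgeR adjusted p = 0.0287), and means were 28.5 ± 22.4 CPM in the triple (SD, n = 6) and 0.232 ± 0.0727 CPM in the double samples (SD, n = 2). The exact permutation test over the 28 ways to divide 8 samples into 6 and 2, 2-sided, gave p = 0.0357, the smallest it can give. The call depended on single samples and on the tool, with adjusted p of 0.186 without double replicate 1, 0.0557 without double replicate 2, 0.0534 without triple replicate 1 and 0.0524 without triple replicate 5. By limma-voom it was 0.159. The log2 fold change stayed between 6.24 and 7.26 in all 18 alternatives.

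Ndn encodes necdin, a MAGE family protein that restrains cell growth in post-mitotic neurons and also acts in muscle and fat precursors. It is a single-exon gene on chromosome 7 (62346569 to 62350262, plus strand). The RefSeq window shown for Ndn (62348027 to 62348326) lies inside this exon, so the 2 annotations place the start differently. The level of Ndn was 22.3, 46.5 and 67.6 CPM (lowest, median and highest) in the triple samples, against 4.61 and 2.64 CPM in double samples 1 and 2. No triple sample came near the double samples, and the triple samples spread over 3.02-fold. Ndn rose by 3.68 ± 0.53 on the log2 scale (SE; edgeR adjusted p = 0.00719), with means of 46.4 ± 17.2 CPM in the triple (SD, n = 6) and 3.62 ± 1.40 CPM in the double samples (SD, n = 2). It was called in each of the 8 fits that left out a single sample, with adjusted p of at most 0.0421. The labels carry description codes, whose meaning is not given, and the code SN930 marks triple samples 4, 5 and 6 and double sample 1. Within code SN930 the log2 fold change of Ndn was 2.96 (adjusted p = 0.0550) and within the other codes 4.43 (adjusted p = 0.116). Those of Nnat were 6.99 (adjusted p = 0.0416) and 6.80 (adjusted p = 0.385). Each of these fits holds only 1 double sample, so code and double sample cannot be told apart there. Neuronal markers were examined since both genes are known from neurons. They summed to 30.3 to 87.2 CPM in the triple samples and to 43.5 and 40.4 CPM in double samples 1 and 2. None of the 7 tested was called by edgeR, and DESeq2 called Chga alone. At an unadjusted p under 0.05 there was 1 of the 7, against 4947 of all 17709 tested genes. Of the 10 listed, Snap25, Syt1 and Chgb did not pass the filter, and Snap25 had no count in double sample 2. Fibroblast markers summed to 5051 to 20104 CPM in the triple samples and to 4006 and 4121 CPM in the double samples, with Pdgfra called higher and the other 5 not called. The part of fibroblasts in the Nnat and Ndn differences was not tested.

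The Prader-Willi domain is named for the human syndrome caused by loss of its paternal copy. Its other genes were either not called by edgeR or not tested. Magel2, the MAGE family gene 26747 bases beyond Ndn, had 3 counts over the 6 triple samples and 0 counts over both double samples, which allows up to 0.0572 CPM there. It did not pass the filter and was not tested. Snrpn, which encodes the splicing protein SmN, was counted at 0.630, 3.36 and 5.45 CPM (lowest, median and highest) in the triple samples, against 6.44 and 0.794 CPM in double samples 1 and 2. The double samples thus bracketed all but the lowest triple sample, and the log2 fold change was -0.17 ± 0.84 (SE; edgeR adjusted p = 0.911). Without double replicate 1 it was 2.00 (adjusted p = 0.469) and without double replicate 2 it was -0.99 (adjusted p = 0.395).

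Counting can bear on Snrpn, because 27.3% of its exonic bases are shared on the same strand with other annotated genes, Snurf among them, and Snurf itself had 0 counts in all 8 samples. Snhg14, the long RNA that continues the Snrpn transcript across the domain, was counted at 5.07 CPM in triple sample 2, where Snrpn was highest, and at 0.663 CPM in triple sample 4, where Snrpn was lowest. In triple sample 5 there were 0.253 CPM of Snhg14 and 3.42 CPM of Snrpn. This comparison of both genes was chosen after their values were seen.

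Of the 9 tested genes in a list of the domain and its flanks, Ndn alone was called by edgeR. Peg12, a paternally expressed gene whose product inhibits GSK3, and Atp10a, a phospholipid transporter, also lay higher in every triple sample, and DESeq2 called both. DESeq2 called 4 of the 9, against 3380 of all 17709 tested genes. An unadjusted p under 0.05 was reached by 5 of the 9, with 0 lower, against 4947 of all 17709. Every triple sample was higher for 4 of the 9, against 12.8% of all tested genes. Peg12 ranged over 7.69 to 15.6 CPM in the triple samples, against 3.89 and 0.542 CPM in double samples 1 and 2 (log2 fold change 2.39 ± 0.71, SE; edgeR adjusted p = 0.0721). Atp10a ranged over 40.7 to 110 CPM in the triple samples, against 15.3 and 28.7 CPM in double samples 1 and 2 (edgeR adjusted p = 0.0506). Ube3a, the ubiquitin ligase that is maternally expressed in neurons, had a log2 fold change of 0.07 ± 0.29 (SE; edgeR adjusted p = 0.904).

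**Figure D2:**
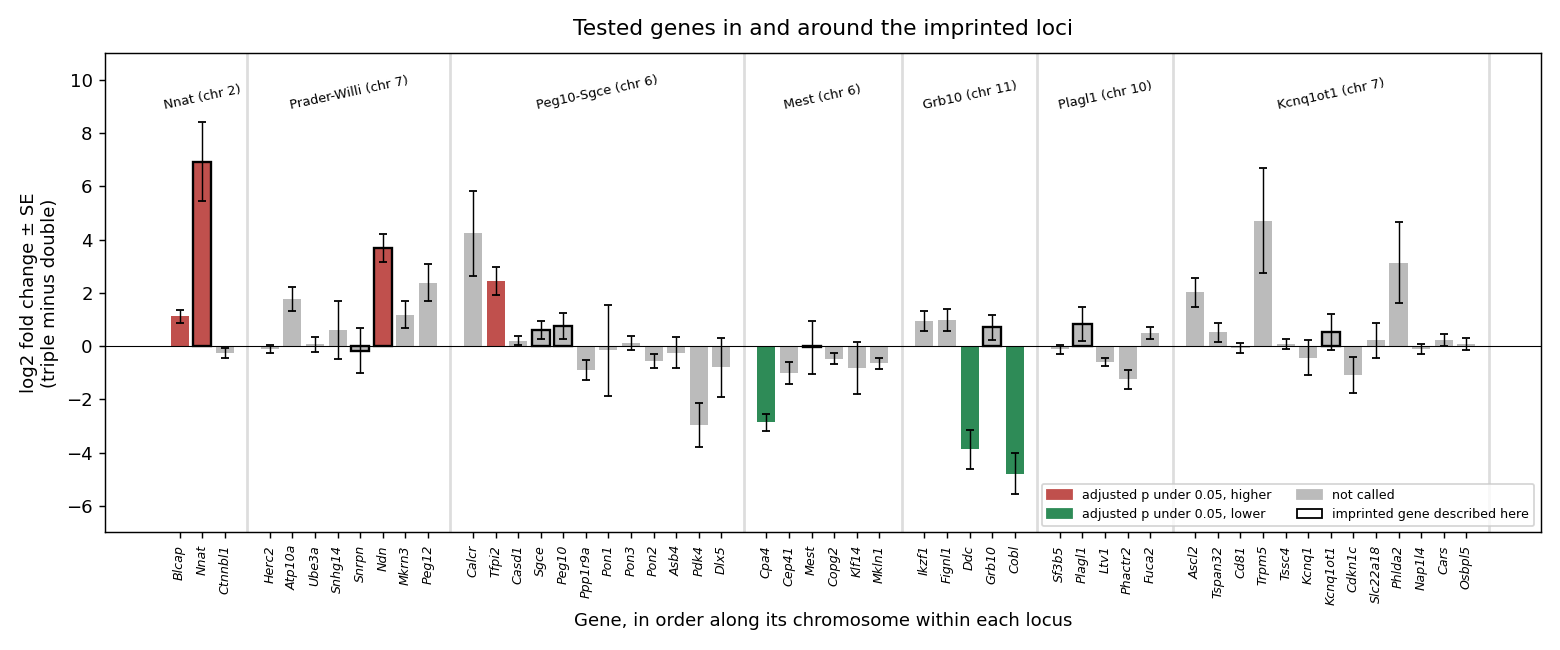
Fold change of tested genes in and around 7 imprinted loci, as log2 of triple over double with its SE, in order along the chromosome. Red bars were called higher, green bars lower and grey bars were not called, and a black outline marks the imprinted genes described here. Nnat with Blcap, Ndn, and Tfpi2 were called higher, and Cpa4, Ddc and Cobl lower, and no other gene plotted was called.

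At the Nnat locus the host gene Blcap, whose transcripts are known in the mouse brain to be affected by imprinting, was called as well. It ranged over 38.4 to 66.4 CPM in the triple samples, against 22.9 and 25.5 CPM in double samples 1 and 2, a log2 fold change of 1.11 ± 0.25 (SE; edgeR adjusted p = 0.0332). The groups did not overlap. Leaving out double replicate 1 ended its call (adjusted p = 0.192), and so did leaving out any of triple replicates 1, 3, 4, 5 and 6 (0.0504 to 0.0641). No exonic base of Nnat is shared with Blcap in GENCODE M21. Ctnnbl1, a nearby splicing factor gene, had a log2 fold change of -0.26 ± 0.18 (SE; edgeR adjusted p = 0.374).

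Mest was the most abundant of the 10 genes for its length, at 108 CPM per kilobase of exon in the triple and 112 CPM per kilobase in the double samples. It encodes a hydrolase-like protein of mesoderm, and an intron of the gene hosts the microRNA gene Mir335. The mature products are shown with the seed (bases 2 to 8) in capitals, from RefSeq on GRCm38.p6, since Mest is their host, although these libraries did not measure small RNA.
mmu-miR-335-5p, chr6:30741314-30741336, plus strand: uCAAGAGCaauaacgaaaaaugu
mmu-miR-335-3p, chr6:30741354-30741375, plus strand: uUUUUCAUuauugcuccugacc
Mest (chromosome 6, 30723547 to 30748465) stood at 101, 229 and 1211 CPM (lowest, median and highest) in the triple samples, against 224 and 656 CPM in double samples 1 and 2. Triple samples 5 and 6 were above both double samples, triple samples 1, 2 and 4 were below both, and triple sample 3 lay between them. The difference between genotypes was smaller than the 11.9-fold spread within the triple samples. The log2 fold change was -0.05 ± 0.98 (SE; edgeR adjusted p = 0.977), 0.94 without double replicate 2 and -0.72 without triple replicate 5. Copg2, a coatomer subunit expressed from the maternal copy in mouse embryos, is read against Mest and overlaps its end, and 23.1% of the exonic bases of Mest are shared with another gene on either strand. Copg2 lay lower in every triple sample, at 28.5 to 46.9 CPM against 50.4 and 51.8 CPM in double samples 1 and 2, without passing the test (log2 fold change -0.47 ± 0.22, SE; edgeR adjusted p = 0.199). Cpa4, a carboxypeptidase gene of the same domain, fell by 2.86 ± 0.31 on the log2 scale (SE; edgeR adjusted p = 0.00277), to 1.36 to 2.92 CPM in the triple samples, against 14.7 and 16.6 CPM in double samples 1 and 2.

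Peg10 and Sgce face away from each other on chromosome 6 with 98 bases between them, and both are read from the paternal copy. Peg10 derives from a retrotransposon and is needed for the mouse placenta. Sgce encodes epsilon-sarcoglycan of the dystrophin complex, and loss of its human counterpart causes myoclonus dystonia. Peg10 stood at 28.6, 72.5 and 105 CPM (lowest, median and highest) in the triple samples, against 38.8 and 43.0 CPM in double samples 1 and 2. It exceeded both double samples in 4 of 6 triple samples and was below both in triple sample 3. Triple sample 2, at 38.7 CPM, was nearly level with double sample 1. Sgce stood at 35.6, 49.7 and 87.2 CPM in the triple and at 34.5 and 36.6 CPM in the double samples, above both in 5 of 6. Neither was called, with log2 fold changes of 0.76 ± 0.48 for Peg10 (SE; edgeR adjusted p = 0.330) and 0.60 ± 0.32 for Sgce (SE; edgeR adjusted p = 0.252). Both stayed positive in all 18 alternatives, at 0.34 to 1.12 for Peg10 and 0.41 to 0.72 for Sgce.

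Of 12 tested genes around this pair, edgeR called Tfpi2 alone, an inhibitor of serine proteases that is imprinted in the mouse placenta. DESeq2 called 3 of the 12, Tfpi2, Calcr and Pdk4, against 3380 of all 17709 tested genes. By edgeR the log2 fold change was 4.23 for Calcr (adjusted p = 0.132) and -2.97 for Pdk4 (adjusted p = 0.0638). Tfpi2 rose by 2.45 ± 0.53 on the log2 scale (SE; edgeR adjusted p = 0.0298), with 20.5 to 71.5 CPM in the triple samples, against 4.94 and 8.77 CPM in double samples 1 and 2. By limma-voom Tfpi2 was not called (adjusted p = 0.0621). It lost its call when double replicate 1 was left out (adjusted p = 0.206), and likewise for triple replicate 4 (0.0546) or 5 (0.0563).

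Plagl1 encodes a zinc finger factor that stops the cell cycle and is known in the mouse to act on a network of other imprinted genes. On chromosome 10 (13060504 to 13131694), it stood at 25.4, 31.7 and 63.1 CPM (lowest, median and highest) in the triple samples, against 35.6 and 5.49 CPM in double samples 1 and 2. The double samples differed by 6.48-fold from each other, more than the 2.48-fold spread of the triple samples. The log2 fold change was 0.83 ± 0.63 (SE; edgeR adjusted p = 0.413), 2.72 without double replicate 1 (adjusted p = 0.0667) and 0.05 without double replicate 2 (adjusted p = 0.943). None of the 5 tested genes at the locus was called by edgeR, and 3 had an unadjusted p under 0.05, against 4947 of all 17709. DESeq2 called Phactr2 and Ltv1, against 3380 over all genes. Per kilobase of exon, Plagl1 averaged 4.66 CPM in the triple and 2.63 CPM in the double samples.

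Grb10 encodes an adaptor that binds the insulin and IGF1 receptors and damps their signal. It stood at 345, 409 and 545 CPM (lowest, median and highest) in the triple samples, against 94.3 and 420 CPM in double samples 1 and 2. Double sample 2 lay inside the range of the triple samples and double sample 1 far below it. The log2 fold change was 0.71 ± 0.47 (SE; edgeR adjusted p = 0.355), and it was -0.013 without double replicate 1 (adjusted p = 0.992) and 2.17 without double replicate 2 (adjusted p = 0.00323), a fit with double sample 1 alone that assumes it varies as the triple samples do. Within code SN930 it was 2.25 (adjusted p = 0.0382) and within the other codes -0.10 (adjusted p = 0.872). Of its neighbours on chromosome 11, 2 were called lower. Ddc, the enzyme that makes dopamine and serotonin, fell by 3.88 ± 0.74 (SE; edgeR adjusted p = 0.0207), with 1.13 to 5.13 CPM in the triple samples, against 52.9 and 6.82 CPM in double samples 1 and 2. Cobl, an actin nucleator, fell by 4.80 ± 0.77 (SE; edgeR adjusted p = 0.0113), with 0.597 to 8.04 CPM in the triple samples, against 183 and 28.4 CPM in double samples 1 and 2. Without double replicate 1 the log2 fold change was -1.77 for Ddc (adjusted p = 0.338) and -2.90 for Cobl (adjusted p = 0.145), and Ddc also lost its call, narrowly, without triple replicate 1.

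Kcnq1ot1 is a long non-coding RNA read against the potassium channel gene Kcnq1, and on the paternal copy it silences neighbours such as the cell cycle inhibitor Cdkn1c. It stood at 17.9, 26.1 and 45.8 CPM (lowest, median and highest) in the triple samples, against 3.81 and 35.5 CPM in double samples 1 and 2. As for Grb10, double sample 2 lay among the triple samples and double sample 1 below them. The log2 fold change was 0.52 ± 0.68 (SE; edgeR adjusted p = 0.647), -0.33 without double replicate 1 (adjusted p = 0.818) and 2.90 without double replicate 2 (adjusted p = 0.0100). Within code SN930 it was 2.49 (adjusted p = 0.0358) and within the other codes -0.018 (adjusted p = 0.988). Kcnq1 and Kcnq1ot1 lie on opposite strands, and since the use of strand in counting is not known, reads of the 2 genes cannot be told apart with certainty. Cdkn1c had a median of 58.6 CPM and a highest value of 172 CPM in the triple samples, against 88.6 and 209 CPM in double samples 1 and 2 (log2 fold change -1.08 ± 0.69, SE; edgeR adjusted p = 0.331). None of the 13 tested genes at this locus was called by edgeR, and 2 had an unadjusted p under 0.05, against 4947 of all 17709. DESeq2 called Ascl2 alone, against 3380 over all genes.

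**Figure D3:**
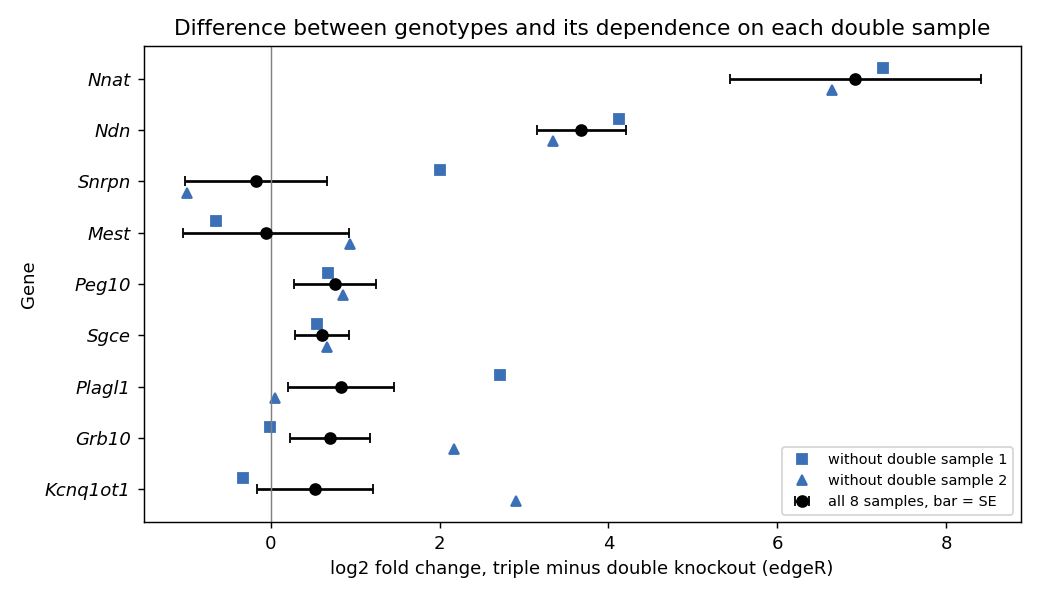
Log2 fold change of each tested imprinted gene, triple minus double. Black points are fits to all 8 samples with their SE, squares leave out double sample 1 and triangles leave out double sample 2. For Nnat and Ndn the 3 values lie close together, and closer still for Peg10 and Sgce, which were not called. For Snrpn, Plagl1, Grb10 and Kcnq1ot1 they part by 2 or more on the log2 scale.

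The double samples differed from each other for several of these genes. On the log2 scale double sample 1 minus double sample 2 was 2.92 for Snrpn and 2.68 for Plagl1, but -2.16 for Grb10, -3.20 for Kcnq1ot1 and -1.55 for Mest. For the remaining 4 genes it lay between -0.15 and 0.79. Double sample 1 is also the sample with the highest sums of adult muscle and adipocyte markers (adipocyte sums were 4.87 to 161 CPM in the triple samples, and 812 and 36.4 CPM in double samples 1 and 2). The part of these cells in the difference between the double samples was not tested.

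Among the triple samples no gene order was shared. Triple sample 5 was the highest of the 6 for Mest, Sgce, Plagl1 and Grb10 and the lowest for Kcnq1ot1, triple sample 1 was the highest for Nnat and Ndn, and triple sample 4 was the lowest for Snrpn, Mest and Plagl1. The SD of log2 CPM within the triple group was largest for Nnat, at 1.67, followed by Mest and then Snrpn, at 1.07, and it was lowest for Grb10, at 0.23. Per kilobase of exon the mean levels in the triple samples ran from Mest (108 CPM) through Grb10 (46.2 CPM), Nnat (15.6 CPM), Ndn (12.6 CPM), Peg10 (10.4 CPM), Sgce (5.08 CPM) and Plagl1 (4.66 CPM) to Snrpn (1.48 CPM). Kcnq1ot1, divided by its whole span, was at 0.334 CPM per kilobase. In the double samples Nnat and Ndn were instead near the low end, at 0.127 and 0.981 CPM per kilobase.

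Genes that share a locus were compared across the 6 triple samples in 5 pairs, and no pair passed the exact permutation test over the 720 pairings (2-sided). Pearson's r was 0.77 for Nnat and Blcap (adjusted p = 0.260; Spearman's rho 0.71, adjusted p = 0.292), and 0.51 without the 2 samples farthest from the median of Nnat. For Mest and Copg2 r was 0.74 (adjusted p = 0.260; rho 0.77), and 0.90 without the 2 samples farthest from the median of Mest. Kcnq1ot1 and Cdkn1c gave r = -0.57 (adjusted p = 0.375; rho -0.66), and -0.77 without the 2 farthest samples. Ndn and Snrpn gave r = 0.19 (adjusted p = 0.898; rho 0.14), and 0.74 without the 2 farthest samples. Peg10 and Sgce, which lie head to head, gave r = 0.03 (adjusted p = 0.935; rho 0.03), and 0.05 without the 2 farthest samples. Magel2 had too few counts for its 2 pairs.

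**Figure D4:**
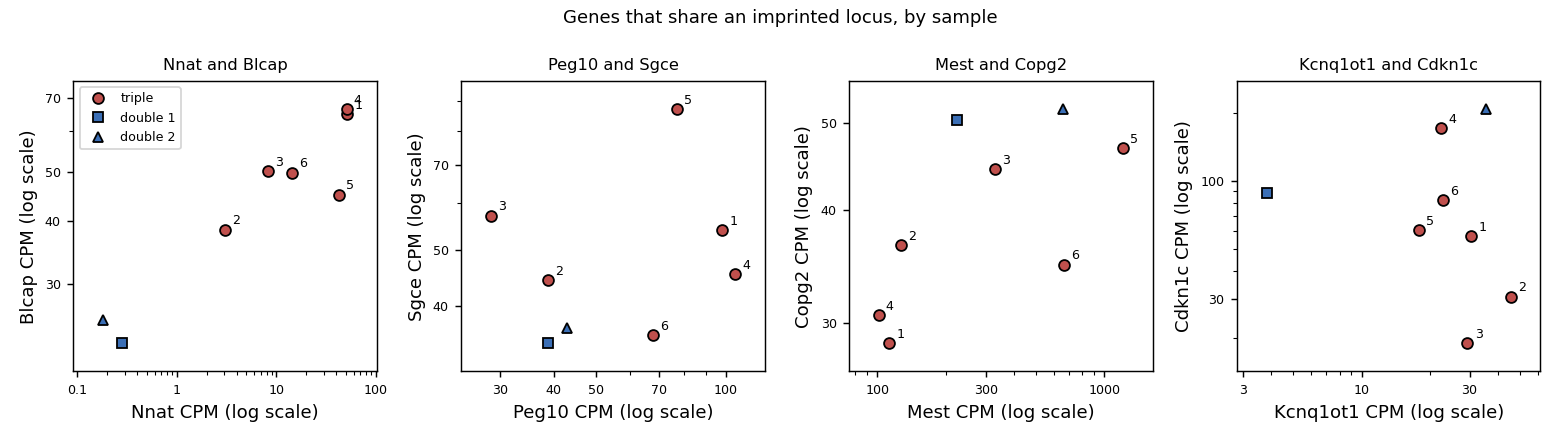
Levels of 4 pairs of genes that share an imprinted locus, in CPM on log axes. Red circles are triple samples, numbered 1 to 6, and blue markers are double samples 1 and 2. Blcap and Nnat are both low in the double samples, and the triple samples with most Peg10 are not those with most Sgce.

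The genes whose log2 levels were most alike across all 8 samples, among 14621 others with a mean of at least 1 CPM, were Efnb3 (r = 0.98) and Nid1 (r = 0.98) for Nnat, and Amph (r = 0.99) and Cds1 (r = 0.99) for Ndn. Efnb3 is an ephrin ligand, Nid1 a basement membrane protein, Amph an endocytic adaptor and Cds1 an enzyme of phospholipid synthesis. These values describe 8 samples that fall into 2 genotypes, so any gene that parts the genotypes scores high. Within the 6 triple samples r was 0.99 and 0.93 for Efnb3 and Nid1 with Nnat, and 0.88 and 0.95 for Amph and Cds1 with Ndn. These 6 samples were part of the 8 by which the genes were picked, so these values are no separate check.

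Of a wider list of 44 tested imprinted genes other than the 10, chosen with earlier results of these data known, 29 were not called. The edgeR calls were 7 increases and 8 decreases, or 34.1%, against 8.35% of all tested genes (2.94% higher and 5.41% lower). Those with the smallest p were Rian, up by 4.37 ± 0.38 on the log2 scale, Peg3, at 3.95 to 16.0 CPM in the triple samples against 556 and 275 CPM in double samples 1 and 2, Meg3, up by 3.96 ± 0.38, and H19, which fell by 3.92 ± 0.47 (SE; edgeR adjusted p of 0.00135 to 0.00403). Without the genes of the Dlk1-Meg3, Peg3 and H19-Igf2 loci, a reduction made after the values were seen, 3 of 34 rose and 4 fell. That is 20.6%, against 8.35% of all tested genes, and the median log2 fold change of the 34 was -0.01. The 3 that rose were Rasgrf1, Tfpi2 and Blcap, and the 4 that fell were Zdbf2, Trappc9, Ddc and Cobl.

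Genes that set or keep DNA methylation and imprints showed 3 increases and no call for a decrease among 23 tested. That is a share of 13% called, against 8.35% of all tested genes (2.94% called higher). An unadjusted p under 0.05 was reached by 6 of the 23, against 4947 of all 17709 tested genes. No member of this list was lower at an unadjusted p under 0.05. Tet1, which oxidises methylcytosine, rose by 1.66 ± 0.37 on the log2 scale (SE; edgeR adjusted p = 0.0330), with 5.22 to 7.99 CPM in the triple samples, against 1.42 and 2.53 CPM in double samples 1 and 2. Dnmt3a, a de novo methyltransferase, rose by 0.86 ± 0.22 (SE; edgeR adjusted p = 0.0452). Dnmt3l, its cofactor, rose by 4.21 ± 1.05 (SE; edgeR adjusted p = 0.0443) with 0.887 to 4.24 CPM in the triple samples, against 0.0405 and 0.181 CPM in double samples 1 and 2. All 3 calls were lost without double replicate 1, at adjusted p of 0.171 for Tet1, 0.280 for Dnmt3a and 0.268 for Dnmt3l. Each call was also lost on leaving out any single triple sample, except 1 sample for Dnmt3a, and adjusted p then reached 0.0697 for Tet1, 0.0920 for Dnmt3a and 0.0766 for Dnmt3l. The maintenance methyltransferase Dnmt1 had a log2 fold change of 1.12 ± 0.42 (SE; edgeR adjusted p = 0.128), and Zfp57 of 0.91 ± 0.46 (SE; edgeR adjusted p = 0.231). Both were chosen after their values were seen.

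Relatives and partners of the 10 genes held 6 decreases and no increase among 32 tested. That is a share of 18.8% called, against 8.35% of all tested genes (5.41% called lower). Among partners of Grb10, Insr, the insulin receptor, fell by 1.15 ± 0.21 on the log2 scale (SE; edgeR adjusted p = 0.0179), and its substrates Irs1 and Irs2 fell by 1.41 ± 0.29 (adjusted p = 0.0248) and 2.27 ± 0.43 (adjusted p = 0.0197). Insr ranged over 36.5 to 48.5 CPM in the triple samples, against 121 and 70.5 CPM in double samples 1 and 2. Igf1r, the other receptor, had a log2 fold change of 0.09 ± 0.18 (SE; edgeR adjusted p = 0.777). Among relatives of Sgce, beta-sarcoglycan (Sgcb) fell by 2.40 ± 0.40 (SE; edgeR adjusted p = 0.0126), with 21.8 to 56.0 CPM in the triple samples, against 314 and 98.5 CPM in double samples 1 and 2. Alpha-sarcoglycan (Sgca), of adult muscle, stood at 0.365 to 17.3 CPM in the triple and at 200 and 12.3 CPM in the double samples (adjusted p = 0.0685). Without double replicate 1 none of these 4 genes was called, at log2 fold changes of -0.72 for Insr, -1.39 for Irs1, -1.25 for Irs2 and -1.34 for Sgcb (adjusted p 0.131 to 0.236). Snrpb, which encodes the SmB protein that SmN resembles, had a log2 fold change of 0.03 ± 0.18 (SE; edgeR adjusted p = 0.928) at 133 to 185 CPM in the triple and 162 and 146 CPM in the double samples.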

How the data were processed

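Each sample's table, as deposited, gives raw read counts by gene beside gene coordinates, and the authors' values carry no normalization. HTSeq and DESeq2 appear in the submitters' processing notes, as do mm10 and GRCm38, without a stated role. How reads were aligned, which annotation was counted and whether strand was used is not given in the sources used here. If strand was not used, overlapping genes share or lose reads. Genes were tested with edgeR 4.0.16 (R 4.3.3; filterByExpr, TMM, quasi-likelihood test), triple minus double, all 8 samples, no covariate. CPM used the TMM library sizes, log2 levels a prior count of 2, and SEs came from the test statistic. Starts were moved by 1 to count from 1 on GRCm38. Exon lengths came from GENCODE M21, whose coordinates 49870 of 52636 genes matched. Replicate numbers follow accession order and pair no samples. Depth sets a limit of 3 counts for a gene with none. Intervals of this kind cover counting error only.

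The 10 genes and all lists were chosen with earlier results of these data known. Named genes are the 10, called genes of their loci, and from each other list up to 4 called genes of smallest p (marker lists are given mainly as sums). Further names were chosen after their values were seen: Peg12, Atp10a, Ube3a, Copg2, Cdkn1c, Dnmt1, Zfp57, Igf1r, Sgca and Snrpb among them. Alternatives were DESeq2 1.42.0, limma-voom (limma 3.58.1), RLE and upper-quartile scaling, other filters on low counts, robust dispersion, description codes, and leaving out each sample. The edgeR fit to all samples was tested on simulated data. A gene of the lists is not reported here.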

Additional observations from a re-analysis of the deposited data

Results flagged for a closer look

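In the triple knockout group Plagl1 in sample 5 stood apart, at 63.1 CPM, where the next highest triple sample had 39.0 CPM. On the CPM scale this gap was 0.64 of the range of the 6 samples, above Dixon's 95% critical value of 0.625. Of the 9 genes examined in this way it was the only one, and chance flags about 1 in 20 such groups. Triple sample 5 was also the highest of its group for Mest, Sgce and Grb10, with gaps below the critical value. Without triple replicate 5 the Plagl1 comparison remained without a call. On the log2 scale Plagl1 was at 5.98 in triple sample 5, 5.29 in triple sample 6 and 4.67 in triple sample 4, the lowest. There the gap was a smaller part of the range, below 0.625, so the flag held on the CPM scale only.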

How the results depend on the processing

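Of the 18 alternatives, Ndn kept its call in 16 and Nnat in 12, and their direction held in all 18. The number of imprinted genes called among those described, 2 over all samples, was 1 with limma-voom, 0 among samples with other description codes (3 at an unadjusted p under 0.05), and 1 to 3 when a sample was left out. Calls over all genes numbered 3380 with DESeq2, 962 with the description code as a term, 1 among samples with other codes, and 315 to 5579 when a sample was left out, lowest without double replicate 1 and highest without double replicate 2. Of the other imprinted genes 15 were called, against 9 within code SN930, 0 within other codes (26 at an unadjusted p under 0.05), and 8 to 19 when a sample was left out. Signs turned only for genes without a call. Snrpn was at 0.25 with limma-voom and 2.30 within other codes, Mest at 1.57 within code SN930, and within other codes Grb10 was at -0.10 and Kcnq1ot1 at -0.018. On leaving out single samples the log2 fold change ranged over -0.99 to 2.00 for Snrpn, -0.72 to 0.94 for Mest, -0.013 to 2.17 for Grb10 and -0.33 to 2.90 for Kcnq1ot1. The median log2 fold change of all genes was 0.12 within code SN930 and 0.15 without double replicate 2, against 0.02 over all samples. The cause of these changes was not tested, and the fits that leave samples out also hold fewer samples. The 5 correlations kept their sign on the linear CPM scale, and none passed the test on either scale. The precision of every comparison is limited by there being 2 double samples. No paired analysis was possible because the labels give no replicate numbers.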
